A study of Mus musculus with 4 samples.

Results

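The 8 genes described here encode transcription factors of the enteroendocrine lineage: Neurog3, Neurod1, Insm1, Pax4, Nkx2-2, Rfx6, Pax6 and Isl1. Accessible chromatin around them was read from ATAC-seq peak lists of Lgr5-EGFP positive stem cells of mice, SISC from the small intestine and LISC from the large one. Peaks of the 4 lists that shared at least 1 bp were merged, and the regions in or within 100 kb of each gene were taken (mm10 coordinates). This gave 104 of the 119965 merged regions, around 8 of 21883 protein-coding genes. Just inside that limit lay a region called in SISC replicate 2 alone, 98.9 kb from Neurod1 (−log10 q 4.64). Just outside it, 106 kb from Rfx6, lay a region called in all 4 libraries (−log10 q between 8.54 and 26.0).

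Each group held 2 libraries. All mice were 6 to 12 weeks old and carried the Lgr5-EGFP-IRES-creERT2 allele, a knock-in reporter known to be expressed in a patchy, mosaic way across crypts. No treatment was given, and 50000 cells were lysed per library. SISC were sorted as EGFP positive and CD24 negative from pieces of gut 2 to 3 cm long, taken next to the pylorus and next to the cecum. LISC were sorted on EGFP alone from the gut between cecum and rectum. CD24 is a surface antigen known on Paneth and enteroendocrine cells. As the gate differed between the groups, an effect of the gate on these loci and one of the tissue cannot be told apart.

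Enteroendocrine cells are the hormone-producing cells of the gut epithelium and arise from crypt stem cells by way of secretory progenitors. Neurog3, a basic helix-loop-helix (bHLH) activator held down by Notch signalling, is switched on briefly in those progenitors and is required for endocrine fate. Neurod1, Insm1, Pax4, Nkx2-2 and Rfx6 act after it, and Pax6 and Isl1 are used in hormone-producing subtypes. Stem cells themselves are not known as sites of high activity of these genes.

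The 3 promoters below show the extremes of the data. At Neurog3 no library had a called region, whereas regions over the starts of Neurod1 and Isl1 were called in every library. Each is the RefSeq sequence (GRCm38.p6, the coordinates of mm10) of the 250 bases before the transcription start, read 5′ to 3′ on the strand of the gene. Capitals mark matches, on either strand, to any of 9 short motifs. These were the E-boxes CAGATG and also CAGCTG, the kind of site bHLH factors bind, the N-box CACNAG of Hes repressors, the TATA box TATAAA and the GC box GGGCGG. The others were AGATAA for GATA factors, ATCAAAG for TCF/LEF factors, TTTATNG for Cdx factors and CAGCACC as part of the REST element.
Neurog3, chr10:62132840-62133089, plus strand: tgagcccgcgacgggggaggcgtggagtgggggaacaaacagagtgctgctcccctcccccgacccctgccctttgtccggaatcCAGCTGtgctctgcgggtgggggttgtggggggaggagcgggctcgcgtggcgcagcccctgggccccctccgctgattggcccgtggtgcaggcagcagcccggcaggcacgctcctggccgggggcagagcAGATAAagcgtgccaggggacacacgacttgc
Neurod1, chr2:79456637-79456886, minus strand: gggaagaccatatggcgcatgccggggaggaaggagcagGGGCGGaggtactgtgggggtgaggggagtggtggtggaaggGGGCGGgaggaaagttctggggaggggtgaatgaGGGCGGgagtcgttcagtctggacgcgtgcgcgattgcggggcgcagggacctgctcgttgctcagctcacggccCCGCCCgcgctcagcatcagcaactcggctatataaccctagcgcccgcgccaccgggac
Isl1, chr13:116309689-116309938, minus strand: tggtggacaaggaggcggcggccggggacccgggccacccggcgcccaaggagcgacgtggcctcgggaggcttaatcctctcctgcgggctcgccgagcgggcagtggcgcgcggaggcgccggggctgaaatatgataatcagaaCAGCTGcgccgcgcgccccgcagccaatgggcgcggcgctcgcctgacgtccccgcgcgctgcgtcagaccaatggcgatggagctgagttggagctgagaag

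The Neurog3 promoter held 1 CAGCTG, starting 165 bases before the start, and 1 AGATAA, 32 bases before it. Among the 21262 promoters of protein-coding genes in the table, CAGCTG was present in 12.1% and AGATAA in 8.81%. The Neurod1 promoter held 4 GGGCGG matches (42.6% of promoters have at least 1) and none of the other motifs. The Isl1 promoter held 1 CAGCTG, 103 bases before the start. CG dinucleotides numbered 18 at Neurog3, 22 at Neurod1 and 33 at Isl1, against a median of 10. The Neurog3 promoter, without a called region, was thus also above that median in CG. The promoters of Pax6, Nkx2-2 and Rfx6 held no called base either. They had 15 CG dinucleotides at each Pax6 promoter, 8 at Nkx2-2 and 2 at Rfx6. Among the windows read, those of Neurod1 and Isl1, which held called bases, had the highest CG counts. The Nkx2-2 and Rfx6 windows lie inside the annotated genes, whose upstream ends lay under regions called in all 4 libraries. The sequence at those upstream ends was not read, so no order of CG by calls is drawn for these genes. The table gave starts for 6 of the 8 genes. Of the others among the 6, Nkx2-2 held 1 CAGATG and 1 GGGCGG, Rfx6 held 1 CACNAG, and the 2 Pax6 promoters held 1 CACNAG between them. A match is a stretch of letters, not a binding site shown to be used, and the absence of one says only that these letters are not in this window.

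Of the 104 regions, 47 (45.2%) were called in all 4 libraries, against 48.2% of all merged regions. Regions that both SISC lists held and neither LISC list did, termed SISC-only, numbered 7 (6.73%, against 7.96% genome-wide). LISC-only regions, the converse, numbered 12 (11.5%, against 10.2%). All 3 shares were near the background. By library, 60 and 78 of the 104 regions were called in SISC replicates 1 and 2, and 73 in each LISC replicate. Around the 8 genes the peaks covered 37.6 and 48.4 kb in SISC and 43.3 and 44.6 kb in LISC, out of 1728259 bp. The groups therefore overlapped in covered length.

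**Figure D1:**
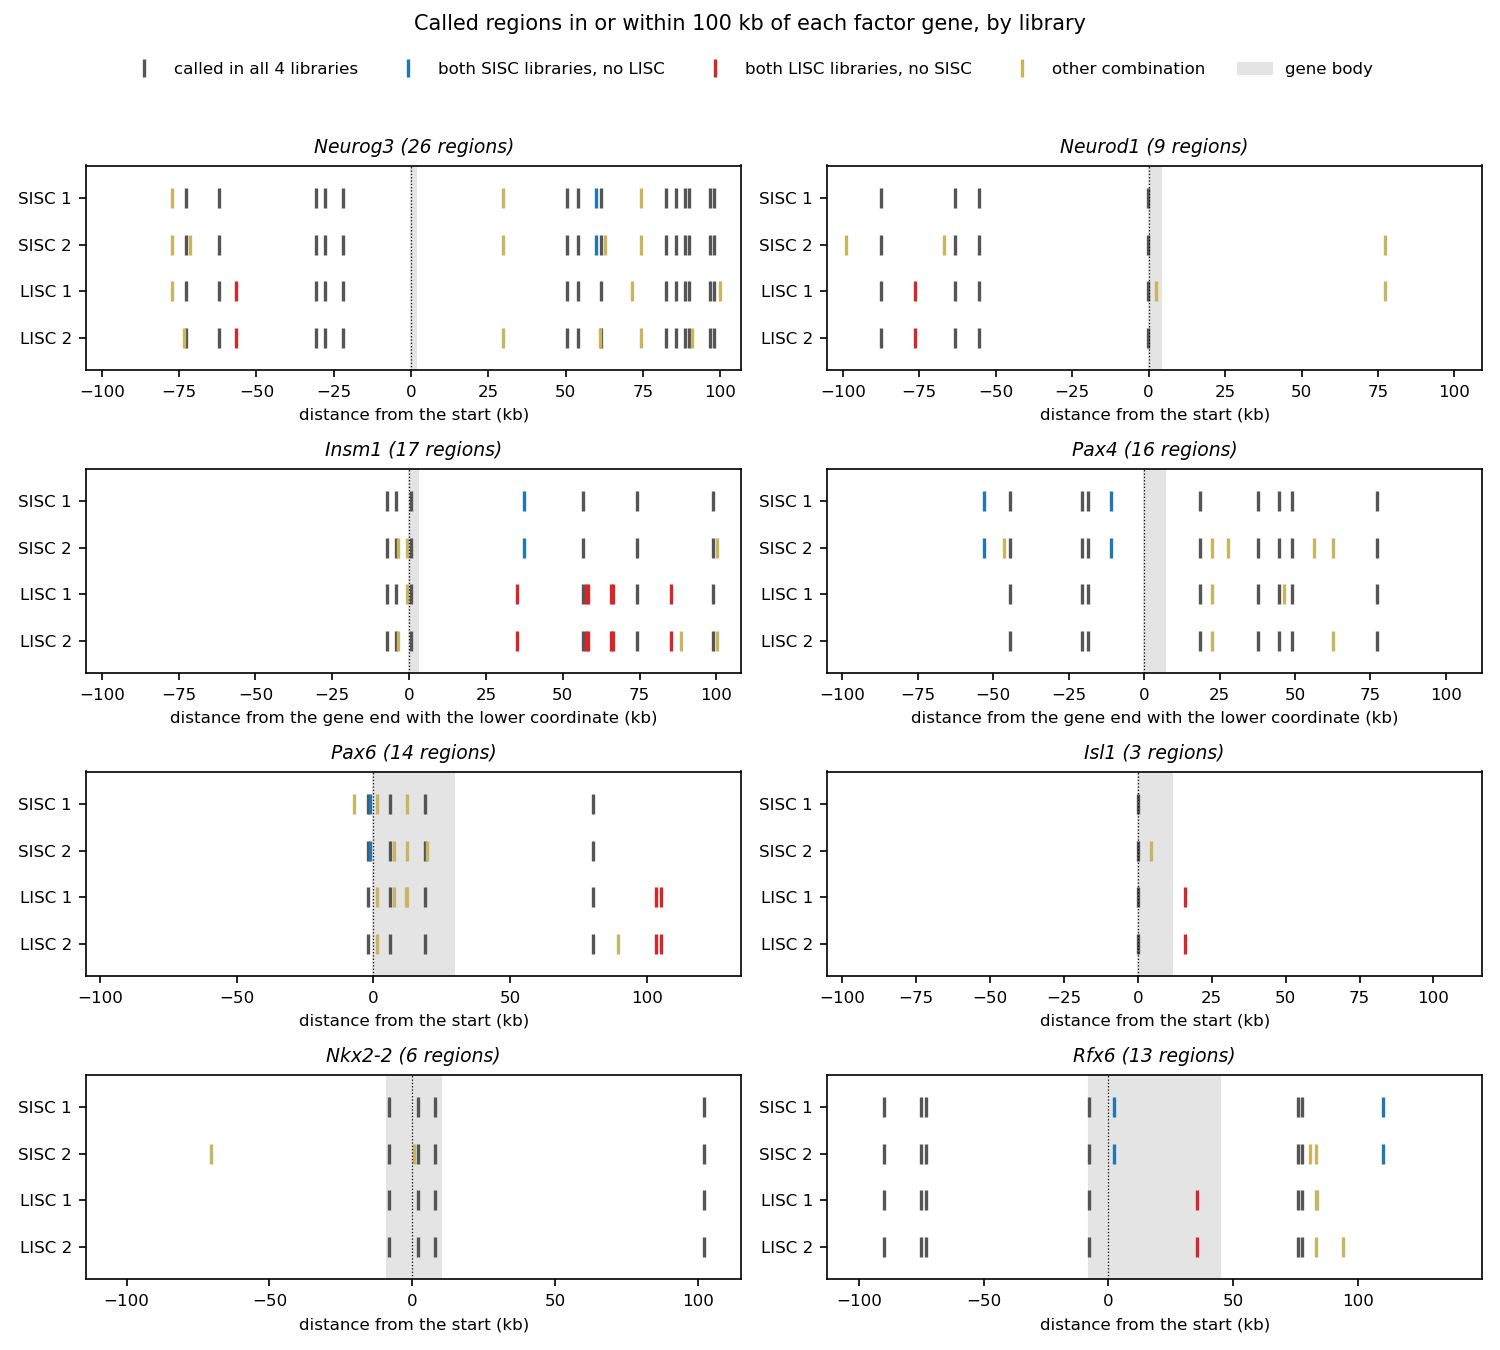
Called regions at each gene, 1 row per library, against distance in kb from the transcription start (from the gene end with the lower coordinate for Insm1 and Pax4), in the direction of transcription where a start was given. Ticks are region centres, coloured by the libraries that called them, and grey bands are gene bodies; the bodies of Neurog3 and Pax4 carry no tick, while red ticks (LISC-only) gather 32.0 to 81.9 kb from Insm1.

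The series as a whole sets limits on these counts. The lists held 83443 and 93220 peaks for SISC and 91313 and 88739 for LISC, and read depth was not among the values used, so an absent call does not show closed chromatin. Peaks on chromosome Y numbered 6 and 8 in the replicate 1 libraries and 0 in both replicate 2 libraries. No member region was called in both replicate 1 libraries alone, and 3 (2.88%) were called in both replicate 2 libraries alone, against 0.421% and 1.18% of all merged regions. With 2 libraries against 2, the smallest p an exact test over libraries can give is 0.333, so the counts are descriptions and none carries a p-value. The −log10 q and fold enrichment of a peak are the authors' values for 1 list, and its size is not compared between lists. The −log10 q of both groups is printed side by side as a record only. Where groups are ordered at a region, it is by its percentile or rank within each list. Such an order is a description that shows no change, since the lists differ in length.

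Neurog3 (chr10:62133090-62134763, plus strand), the factor that commits cells to endocrine fate, had no called region over its start or in its body in any library. The nearest called sequence on one side was a region in the gene Fam241b, 21.6 kb upstream, called in all 4 libraries. On the other side the nearest region lay 29.3 kb downstream and was called in 3 libraries. Between them chr10:62111448-62162386, a stretch of 50.9 kb that holds the whole gene, was free of peaks in all 4 lists. Of all protein-coding genes, 18.8% had their nearest region at least as far from a start.

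The outer parts of the Neurog3 window were rich in peaks. The window held 26 regions, against a median of 20 over all protein-coding genes, and 14 of them were called in every library. The strongest (chr10:62230451-62231639) lay in Tspan15, a tetraspanin gene, 97.4 kb downstream, with a −log10 q of 334 and 260 in SISC and 343 and 194 in LISC. It ranked first among the regions of the window in each of the 4 lists. The SISC-only region (chr10:62192535-62193428), 59.4 kb downstream, lay in Tspan15 too. Its −log10 q was 22.3 and 23.0. The LISC-only region (chr10:62076153-62076663) lay 56.4 kb upstream, outside any protein-coding gene, with 17.2 and 7.99. Neurog3 thus had 1 region of each kind, the same as the median over all genes.

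Neurod1 (chr2:79452637-79456636, minus strand), a bHLH activator that acts directly after Neurog3, had a region over its start in every library. It was narrow (351 bp) and among the weakest peaks of each list. The −log10 q was 4.59 and 9.56 in SISC and 7.21 and 4.98 in LISC, which placed it between percentiles 1.58 and 17.4 of the lists. By percentile the groups overlapped. In bases from the start, the summits lay at -119 in both SISC libraries and at -187 and -117 in LISC.

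Farther from Neurod1, regions were few, and most lay upstream. The 1 distal region on the other side, 76969 bp downstream, was called in SISC replicate 2 and LISC replicate 1. Of the 9 in the window, 3 called in all 4 libraries lay 55.0, 62.7 and 86.6 kb upstream of the start. The region at 62.7 kb (chr2:79519373-79520454) had a −log10 q of 17.0 and 11.4 in SISC and 125 and 81.3 in LISC. By percentile it lay at 29.9 and 22.2 in the SISC lists and at 79.4 and 79.6 in the LISC lists. In both LISC lists it ranked first among the regions of the window, and in both SISC lists the region at 86.6 kb did. The LISC-only region (chr2:79532660-79533290) lay between them, 76.0 kb upstream and 631 bp wide, with a −log10 q of 59.4 and 29.0. That made it the LISC-only region with the highest −log10 q in LISC replicate 1 at any of the 8 genes. No SISC-only region lay in the window. The LISC-only region was nearer to an end of Itprid2 than to one of Neurod1.

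Insm1 (chr2:146221997-146225020), a zinc-finger repressor needed for endocrine differentiation, had the most uneven window. It held 6 LISC-only regions and 1 SISC-only region among 17, while the median gene had 1 of each. Of all protein-coding genes, 3.29% had 6 or more LISC-only regions. Every one of the 6 lay inside the neighbouring gene Ralgapa2, which encodes part of a Ral GTPase-activating complex, and between 32.0 and 81.9 kb from the nearer end of Insm1. The count of LISC-only regions within 50 kb of Insm1 was 1, and none had an end of Insm1 as its nearest gene end.

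At the gene itself a region was called in every library. The region, 2165 bp wide (chr2:146221707-146223871), ran over the gene end and most of the body, with a −log10 q of 36.3 and 49.2 in SISC and 29.1 and 21.1 in LISC. By percentile it lay at 50.1 and 60.4 in the SISC lists and at 44.5 and 43.7 in the LISC lists. In the order of the window it ranked 2 and 1 in the SISC lists and 5 in both LISC lists. First in both LISC lists was a region inside Ralgapa2 (chr2:146278272-146278978), 53.3 kb away, with 228 and 131. The same region ranked 5 and 4 in the SISC lists, with 26.0 and 34.5. Its place in the whole list was at percentiles 41.2 and 51.2 in SISC and 89.4 and 88.9 in LISC.

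The LISC-only regions at Insm1 were of mixed strength. The farthest of them (chr2:146306907-146307593), 81.9 kb away, had a −log10 q of 52.6 and 40.3, and the region 32.0 kb away had 21.9 and 13.1. The other 4, at 54.2, 55.0, 62.5 and 63.3 kb, ranged from 3.86 to 15.7. With peaks held to a −log10 q of at least 10 the window kept 4 LISC-only regions, and leaving out any 1 library gave 6 or 7. The SISC-only region (chr2:146259104-146259472) was 34.1 kb away, with 25.1 and 21.3. It too lay in Ralgapa2. The 5 other regions from 50 kb outwards were called in all 4 libraries (3), in LISC replicate 2 alone or in both replicate 2 libraries.

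**Figure D2:**
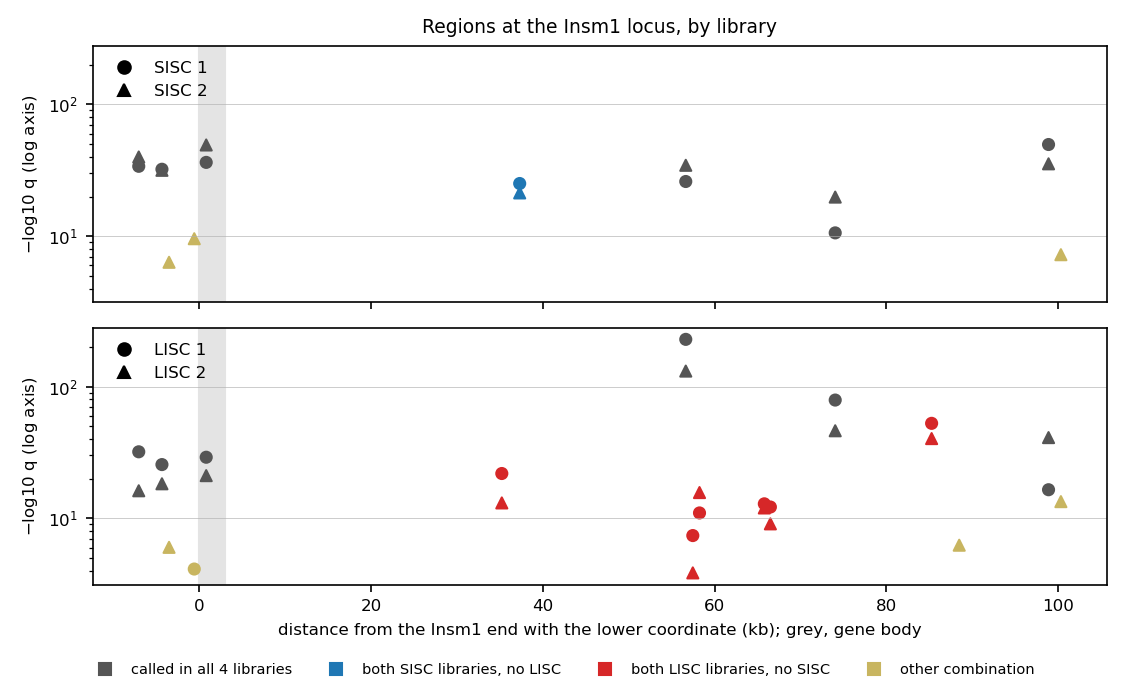
Deposited −log10 q (log axis) of each called region at Insm1 against its distance in kb from the gene end with the lower coordinate; upper panel SISC, lower panel LISC, circles replicate 1 and triangles replicate 2. In LISC the region about 53.3 kb from the nearer gene end stands highest, at 228 and 131, and the 6 LISC-only regions (red) lie beyond 32.0 kb.

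Pax4 (chr6:28442334-28449340), a paired-homeodomain repressor of early endocrine subtypes, resembled Neurog3 in having no called region in its body. Of all protein-coding genes, 25.6% had none. The stretch chr6:28431735-28460529, 28.8 kb long, held no peak of any library. The nearest region, 10.6 kb from the gene and inside Fscn3, which encodes a testis fascin, was SISC-only (chr6:28431272-28431734). Its −log10 q of 64.8 and 53.6 was the highest of the 7 SISC-only regions at the 8 genes in either library. The other SISC-only region lay 53.0 kb away in the zinc-finger gene Zfp800 and was weak, at 4.59 and 9.56.

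The Pax4 window had no LISC-only region. One region 15000 bp from the gene (chr6:28464340-28465045) came close: it had a −log10 q of 45.1 and 24.4 in LISC and was called in SISC replicate 2 at 2.43. That call lay at percentile 0.015 of its list, the lowest percentile of any call at the 8 genes. It became LISC-only when peaks under a −log10 q of 10 were left out, or without SISC replicate 2. The strongest region in the window (chr6:28479534-28480758) lay over Snd1, a gene for a nuclease with broad expression, 30.2 kb away. It had a −log10 q of 684 and 439 in SISC and 685 and 365 in LISC.

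Nkx2-2 (chr2:147176485-147195434, minus strand), a homeodomain repressor of the NK family, had no group-only region. Its window held 6 regions, of which 4 were called in every library and 2 in SISC replicate 2 alone. Inside the gene 3 regions were called in all 4 libraries. The broadest, 2020 bp (chr2:147193753-147195772), covered the upper gene end, with a −log10 q of 14.5 and 23.9 in SISC and 22.2 and 16.2 in LISC. On the minus strand that end is the upstream one. The strongest in all 4 lists (chr2:147177684-147179178), 7.22 kb downstream of the start of the promoter table, had 49.7 and 73.9 in SISC and 52.0 and 29.9 in LISC. Around that table start itself, SISC replicate 2 alone had a region within 1 kb. By percentile the groups overlapped at the first of these regions and at the second.

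Rfx6 (chr10:51677760-51730429, plus strand), a winged-helix factor upstream of incretin hormone genes, had a region over its lower, upstream gene end in every library (chr10:51677263-51678542). The −log10 q was 75.8 and 87.3 in SISC and 69.8 and 52.3 in LISC. By percentile (68.6 and 74.5 in SISC, 66.7 and 69.2 in LISC) the groups overlapped. Summits of the 4 libraries fell within 11 bp of each other. The start given by the promoter table lies farther inside the gene, and no region was called within 1 kb of it. A weak SISC-only region (chr10:51687627-51687916) lay 2.11 kb downstream of that start, at 6.81 and 6.69. A weak LISC-only region (chr10:51720995-51721239) lay 35.5 kb downstream, also in the gene, at 9.62 and 13.3. These were the sole group-only regions inside any of the 8 genes. A second SISC-only region, 65299 bp beyond the gene (chr10:51795728-51796029), had 12.6 and 7.80.

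Pax6 (chr2:105668896-105698410, plus strand), a paired-homeodomain activator of hormone genes, carried 7 regions in its body, more than any other of the 8 genes. Of these, 2 were called in all 4 libraries and none was group-only. The region 5.70 kb downstream of the first start (chr2:105674598-105675726) had a −log10 q of 46.0 and 29.6 in SISC and 23.0 and 15.8 in LISC, at percentiles 56.2 and 47.2 of the SISC lists and 38.4 and 34.8 of the LISC lists. The region 4.71 kb downstream of the second start (chr2:105687176-105688351) had 32.7 and 23.1 in SISC and 43.0 and 39.1 in LISC, at percentiles 47.3 and 40.9 of the SISC lists and 54.8 and 61.5 of the LISC lists. The order of the groups was thus opposite at these 2 regions. Neither of the 2 promoter windows of 250 bases held a called base.

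A SISC-only region (chr2:105667552-105667882) ended 1014 bp before the first Pax6 start, with a −log10 q of 21.1 and 17.1. It was the group-only region nearest to a start of any of the 8 genes. On the other side of that start, 1139 bp into the gene, a region (chr2:105670035-105670561) was called in all libraries except SISC replicate 2, at 26.5 in SISC replicate 1 and 39.4 and 19.7 in LISC. The 2 LISC-only regions (chr2:105772106-105772554 and chr2:105773807-105774140) lay together in Elp4, an Elongator subunit gene, 73696 and 75397 bp beyond the end of Pax6. They were weak, at 8.39 and 4.08 and at 17.2 and 9.09. The strongest region by mean percentile also lay in Elp4, 66.3 kb downstream of the second start, at 34.9 and 45.4 in SISC and 91.4 and 48.8 in LISC.

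Isl1 (chr13:116298270-116309688, minus strand), a LIM-homeodomain factor, had the emptiest window, with 3 regions against a median of 20 over all genes. No other protein-coding gene lay in it. The region over the start (chr13:116309281-116310274) was called in all 4 libraries and covered all 250 bases printed above. Its −log10 q was 81.9 and 83.0 in SISC and 157 and 81.3 in LISC. By percentile it lay at 70.4 and 73.3 in the SISC lists and at 83.6 and 79.7 in the LISC lists. Summits were at -67 or -78 bases from the start. The LISC-only region (chr13:116293671-116294122), 15.6 kb downstream of the start and beyond the gene, was weak, at 7.21 and 8.54.

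**Figure D3:**
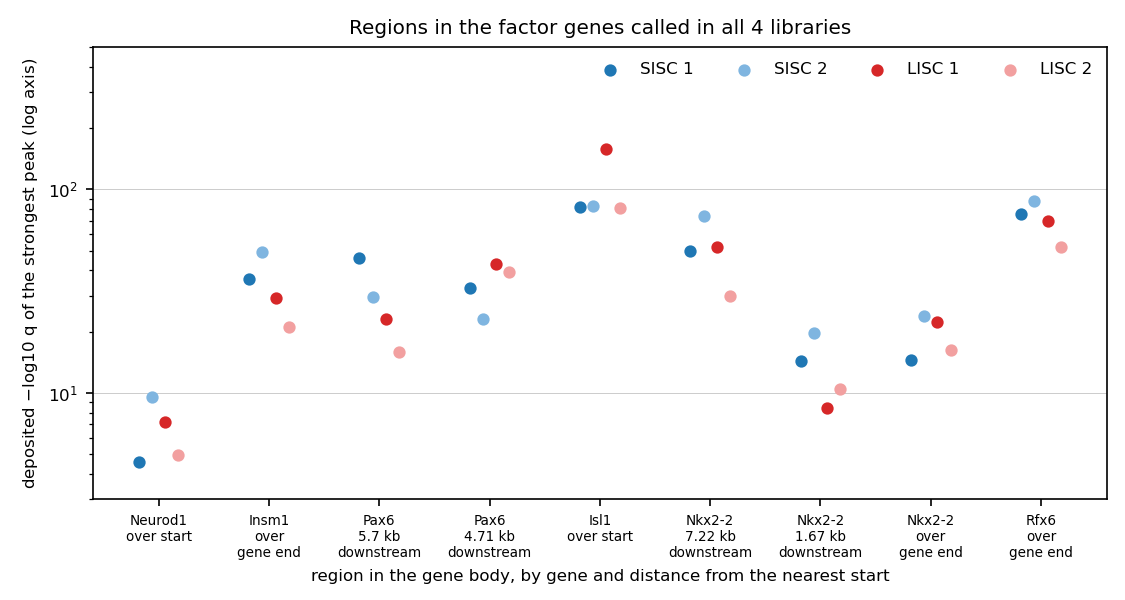
Deposited −log10 q (log axis) of the 9 regions inside the factor genes that were called in all 4 libraries, 1 point per library. The region over the Neurod1 start lies lowest, between 4.59 and 9.56, and the Isl1 start and the Rfx6 gene end lie highest.

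The 8 genes differed in the calls at their starts. A region within 1 kb of a start (of either gene end for Insm1 and Pax4, which have no entry in the promoter table) was called in all 4 libraries for 3 genes, Neurod1, Insm1 and Isl1. This is 37.5% of the 8, against 62.1% of all protein-coding genes. Pax6 had one in 3 libraries and Nkx2-2 in 1. Neurog3, Pax4 and Rfx6 had one in none, as had 32.4% of protein-coding genes. For Nkx2-2 and Rfx6 this refers to the start of the promoter table, which lies inside the gene. The upstream ends of both annotated genes lay under a region called in all 4 libraries. By the annotated gene ends, a definition added after the data were seen, the 3 genes became 5, with Nkx2-2 and Rfx6 added, again against 62.1% of all genes. With the lists held to their strongest 41721 peaks, the count was 1. Among all merged regions, those called in all 4 libraries then fell to 29259 from 57829. The share of all protein-coding genes at that setting is not given here.

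**Figure D4:**
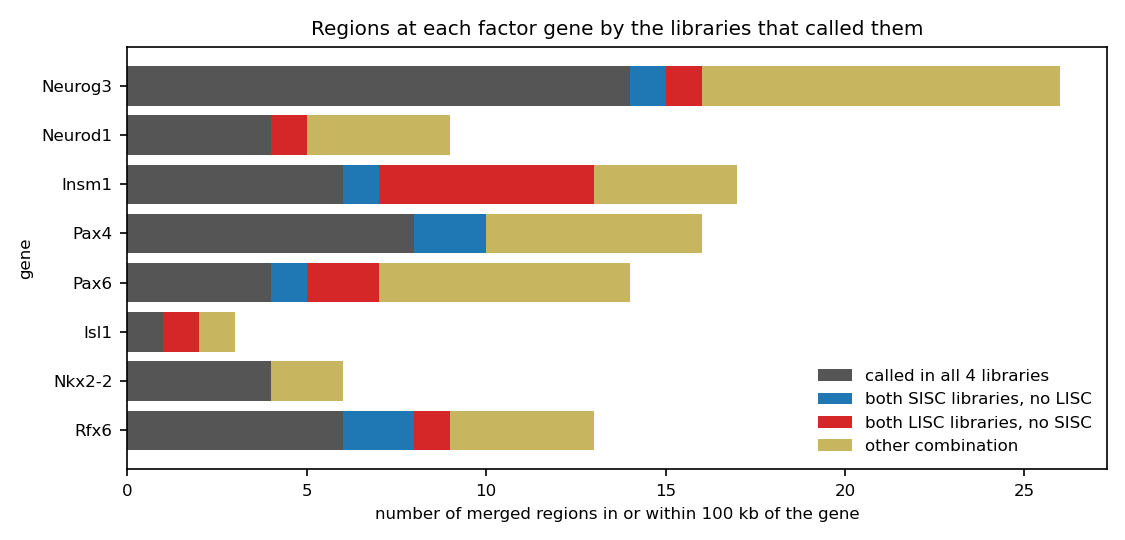
Number of merged regions in or within 100 kb of each gene, stacked by the libraries that called them. Neurog3 has the longest bar, with 26 regions, Isl1 the shortest, with 3, and the LISC-only part is widest at Insm1, with 6 regions.

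Group-only regions were spread thinly. At least 1 SISC-only region lay at 5 of the 8 genes (61.4% of all protein-coding genes have one) and at least 1 LISC-only region at 6 (59.1% of all genes). Nearly all of the 19 group-only regions lay outside the factor genes, 12 of them in the body of another protein-coding gene and 2 in Rfx6. They were narrower than shared regions, with a median width of 331 bp for SISC-only, 451.5 bp for LISC-only and 839 bp for regions called in all 4 libraries. Over the genome these medians were 457, 484 and 888 bp.

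The balance between both kinds turned with the setting. LISC-only regions led by 12 to 7, of which Insm1 contributed 6 and 1. Within 50 kb of the genes the counts were 3 LISC-only and 4 SISC-only. Without SISC replicate 1 the SISC-only count was 19 and the LISC-only count 13, a setting in which a single library stands for SISC. All merged regions turned the same way there, to 20774 SISC-only and 13428 LISC-only from 9555 and 12191.

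**Figure D5:**
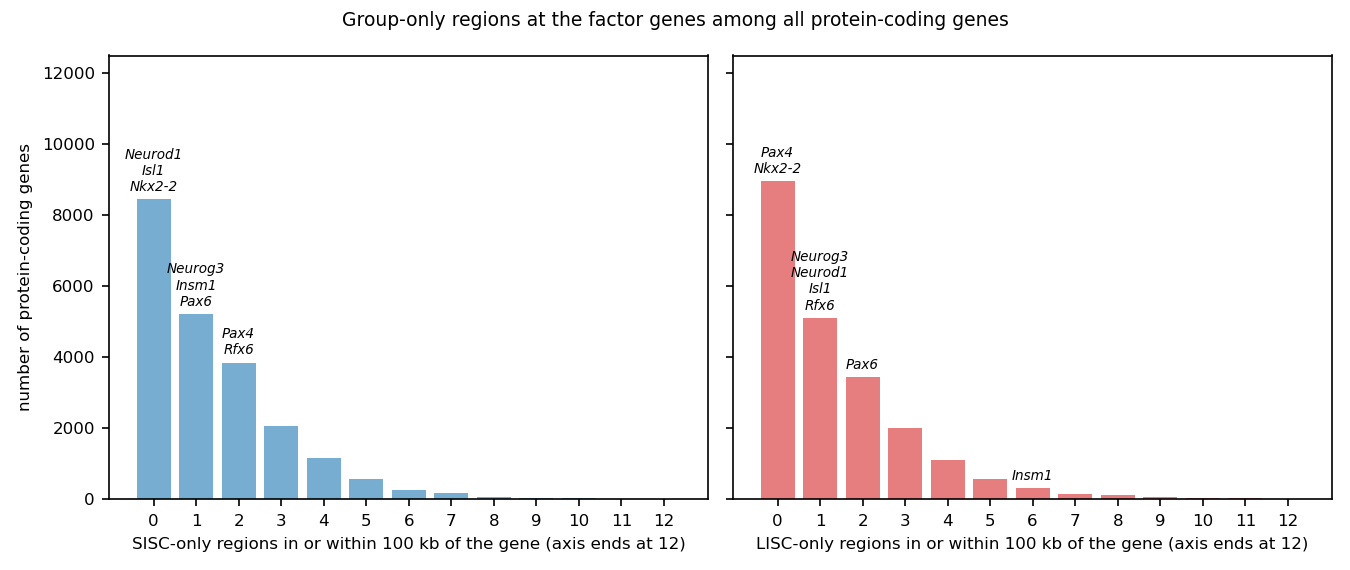
Number of protein-coding genes by their count of SISC-only (left) and LISC-only (right) regions in or within 100 kb, with the 8 factor genes written above the bar of their count. Insm1 stands at 6 LISC-only regions, while the other 7 genes stand at 0 to 2 on both sides.

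The gene most similar to each factor was sought by summing the differences in region counts over the 15 possible call patterns of the 4 libraries. Isl1 matched Dok5, and Nkx2-2 matched Armcx2, with a difference of 0. A difference of 2 regions separated Neurod1 from Atp1b4, Pax4 from Cyren and Rfx6 from Aspa. Neurog3 differed from Gtse1 by 4, Pax6 from Cldn25-ps by 4 and Insm1 from Dhtkd1 by 5. Between 3 and 15 genes shared each of these differences, so the names are examples of equally similar genes.

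Other factors of the endocrine lineage were counted in the same way. Of a list of 24, 20 had a start region in all 4 libraries (62.1% of all protein-coding genes have one), among them Foxa1 and Foxa2, pioneer factors of endoderm. Runx1t1, a co-repressor gene, had one in each SISC library but not in LISC. St18 and Myt1, zinc-finger factors downstream of Neurog3, had none in any library. Of the 404 regions counted around these factors, 30 were SISC-only and 33 LISC-only, where 7.96% and 10.2% of all merged regions are. The median was 1 of each per gene, as over all genes. Hhex, a homeodomain factor of delta cells, had 4 and 6, St18 had 2 and 3, Foxa1 2 and 2, and Lmx1a, a factor of serotonin cells, 0 and 4, in the order SISC-only and LISC-only.

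Genes of the Notch pathway and of repressors acting on Neurog3 or its targets (14 genes) all had a start region in all 4 libraries, as had 62.1% of protein-coding genes. Of the 407 regions counted in their windows, 28 were SISC-only and 15 LISC-only, where 7.96% and 10.2% of all merged regions are. Notch1 and Notch2, the receptors, had 6 and 0 and 7 and 2, Id2, an inhibitor of bHLH factors, 4 and 1, and the ligand gene Dll4 0 and 3. Over this list too the median was 1 of each kind per gene.

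Products of mature enteroendocrine cells were counted as markers of mature cells in the sorted samples, although the CD24 negative gate of SISC would remove cells that carry CD24. Of 19 genes, 11 had a start region in all 4 libraries and 7 had none, against 62.1% and 32.4% of all protein-coding genes. Scgn had one in all libraries except SISC replicate 1. By library the count was 11 and 12 in SISC and 12 and 12 in LISC, so these starts did not separate the groups. Chga, the granin used as a general endocrine marker, had a start region in all 4 libraries, as had the hormone genes Cck, Pyy, Sct and Tac1. The hormone genes Gcg, Sst, Gip, Ghrl, Nts and Insl5 had none. Of the 348 regions counted in the windows of the 19 genes, 25 were SISC-only and 39 LISC-only. Among all merged regions the shares are 7.96% and 10.2%. Medians per gene were 1 and 2, with Cck at 3 and 5, Pyy at 2 and 5, Chga at 3 and 3 and Scgn at 1 and 4. The part that cells of this kind played in the calls at the 8 factor genes was not tested.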

How the data were processed

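ATAC-seq was done on 4 libraries, 2 of SISC and 2 of LISC, grouped by their titles; the labels do not say whether a group's libraries came from different animals, so spread between them may be technical. Tools named per the submitters' processing notes were MACS2 2.2.7.1, Bowtie2 2.3.4.1, cutadapt 3.4, bedtools and Picard, with the build mm10. Not given in the sources used here: Tn5 shifting, duplicate treatment and the calling threshold. The authors deposited 1 MACS2 peak list per library, with a fold enrichment (ratio) at each summit, a −log10 p and −log10 q, a score column and a summit position. The deposited score and fold enrichment were not used in any count. Read counts were not used here, so depth is unknown.

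Peaks sharing at least 1 bp were merged genome-wide, and a library had a region when 1 of its peaks lay in it. Where a region held several peaks of a list, the strongest gave its values. Genes and starts came from RefSeq tables of GRCm38.p6, which give no exons, so positions inside genes are given as gene body only. Starts were matched by gene ID for 17491 of 21883 genes, and otherwise both gene ends were used. No genome sequence was used beyond the promoter table. Comparisons are counts of calls beside the same counts over all regions or genes, with no test. The 8 genes, the gene lists and the rule for named genes (all members, window neighbours, in each list up to 4 genes ranked by group-only regions, 1 most similar gene per member) were chosen with earlier results of these data known. Some other genes named were singled out after their values were seen. Merging was tested on simulated data, where 5000 of 5000 planted call patterns were recovered, and checked against bedtools 2.31.1. Software was pandas 2.3.3, numpy 2.4.6 and matplotlib 3.10.9 under Python 3.11.15. Alternatives were stricter or equal-length lists, 50% cover, summit windows, other distances and leaving out each library. Some results of the gene lists are not reported here.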

Additional observations from a re-analysis of the deposited data

How the results depend on the processing

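No paired analysis was possible because the results are counts of calls that come from no test. In the order SISC-only, LISC-only and called in all 4 libraries, the counts were 7, 12 and 47. They were 4, 3 and 25 within 50 kb, 3, 2 and 14 within 20 kb, 3, 4 and 15 by nearest gene end, and 1, 1 and 9 in the gene bodies, the last a setting added after the data were seen; these settings admit fewer regions by construction. With the strongest 41721 peaks of each list SISC-only regions were 4, LISC-only regions 9 and shared regions 14. All merged regions then fell to 4670 SISC-only, 5393 LISC-only and 29259 shared, from 9555, 12191 and 57829. With a −log10 q of at least 10 the LISC-only regions were 7, and 9804 of all merged regions, from 12191. Leaving out 1 library gave 9 to 19 SISC-only, 13 to 18 LISC-only and 49 shared regions. All merged regions rose too, to between 12137 and 20774 SISC-only, 13428 and 18625 LISC-only and 59748 and 61933 shared. LISC-only regions were the more numerous in 9 of 13 settings, SISC-only in 3. Among all merged regions LISC-only also outnumbered SISC-only, by 12191 to 9555. They did so under every change to the lists except leaving out SISC replicate 1. Genes with a start region in all 4 libraries were 3, and 1 with the strongest 41721 peaks, 5 within 2500 bp of the start, 5 by annotated gene ends and 3 to 4 without 1 library. Apart from the gene ends, the shares of all protein-coding genes under these changes are not given here. A wider distance admits more regions by construction, and shorter lists fewer. The strongest 83443 peaks of each list, 50% cover, summit windows and 500 bp moved none of these 4 counts by over 1.5 times. Depth is unknown, so weak or missing calls set the limit on each count.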

Other observations

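Markers of other cells of the crypt, of immune cells and of brain neurons were counted in the same way. A start region was called in all 4 libraries for 5 of 8 goblet and deep crypt secretory genes, 2 of 5 Paneth genes and 3 of 5 tuft cell genes. Of all protein-coding genes, 62.1% have one in all 4. The goblet cell factor gene Spdef had one in both LISC libraries alone. All 4 libraries called one for 5 of 6 stem cell genes, the exception being Olfm4, which had one in SISC replicates 1 and 2 alone. None of the 5 immune genes had a start region in any library, where 32.4% of all protein-coding genes have none. Of the 5 brain neuron genes, 1 had one in all 4 libraries, and Nefl, a neurofilament gene, had one in both SISC libraries alone. Both sort markers, Lgr5 and Cd24a, had one in all 4. Window counts follow in the order SISC-only and LISC-only, where 7.96% and 10.2% of all merged regions are of these kinds. They were 12 and 24 of 235 regions for the goblet list and 15 and 3 of 75 for Paneth. Tuft genes had 12 and 9 of 176, stem genes 29 and 11 of 199 and immune genes 11 and 9 of 133. Brain neuron genes had 17 and 6 of 135 and the sort markers 9 and 4 of 55.

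Besides the region near Pax4, 1 more region at the factor genes missed the LISC-only class by a single weak call. At Rfx6 it lay 82.9 kb downstream of the start (chr10:51768375-51768876), had a −log10 q of up to 75 in LISC and was called in SISC replicate 2 at 7.24 and not in SISC replicate 1. SISC replicate 2 was also the library with the most calls of its own, 12 of the 104 regions (11.5%), against 9.19% of all merged regions. SISC replicate 1 alone had 1 (0.962%, against 2.32%), and each LISC library alone had 6 (5.77%, against 4.76% and 5.13%). At the regions called in all 4 libraries the summits spread over a median of 61 bp, and over 44 bp across the genome.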
